A study of Homo sapiens with 58 samples.

Results

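SOS1 and SOS2 encode the 2 son-of-sevenless proteins, and these 2 genes, of 60675 gene identifiers in the count table, are described here across 24 groups of HepG2 libraries. HepG2, a liver cancer line of human origin, was treated for 24 h in each group before total RNA was sequenced. The genes were selected on their measured levels in these libraries, since SOS1 had been seen to rise beside CYP1A1 while its paralog had not. Their levels, and those of CYP1A1, are therefore descriptions of the pattern that chose them and carry no p-value.

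The treated groups received 8 herbal extracts. Sayeok-tang and Bojungikgi-tang are multi-herb formulas extracted with hot water, and ethanol was used for the rest, each made from a single herb. These were Scutellariae Radix, Coptidis Rhizoma, Zizyphi Fructus, Pinelliae Tuber, dried ginger (Zingiberis Rhizoma) and fresh ginger (Zingiberis Rhizoma Recens). Low, medium and high doses were 20, 100 and 500 µg/mL, except that Coptidis Rhizoma was given at 11.2 (low) and 56 (medium) µg/mL, since by the series text doses were lowered for extracts that were more toxic to the cells. Controls received the solvent DMSO (vehicle), at 0.1% by the sample labels and 2% by the series text. There were 3 libraries in each of 15 groups, vehicle included, 2 in the 3 Bojungikgi-tang groups and in dried ginger high, and 1 in each Coptidis Rhizoma and Zizyphi Fructus group, 58 in all. Their totals were 22143845 to 31859981 counts. Nothing in the labels states that replicates came from separate cultures, so every p-value measures the spread between these libraries, which may be technical. Codes in the labels place the vehicle, the formulas, the gingers, the pair of Scutellariae Radix and Pinelliae Tuber, and the pair of Zizyphi Fructus and Coptidis Rhizoma in different sets, so that a set and a treatment cannot be told apart against the vehicle. A comparison of doses of 1 extract stays within a set.

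Both SOS proteins are guanine nucleotide exchange factors. Receptor tyrosine kinases draw them to the membrane through the adaptor GRB2, where they load RAS with GTP and so start the RAF, MEK and ERK kinase cascade; SOS1 can also act on RAC in a complex with ABI1 and EPS8. CYP1A1, a cytochrome P450 that oxidises polycyclic aromatic compounds, is the classic target of the aryl hydrocarbon receptor (AhR), a ligand-activated transcription factor that pairs with ARNT and binds DNA at the core GCGTG.

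The gene positions are on GRCh38 and come from GENCODE release 29. SOS1 (ENSG00000115904) lies on the minus strand at chr2:38981396-39124345 and SOS2 (ENSG00000100485) on the minus strand at chr14:50117120-50231558; CYP1A1 (ENSG00000140465) is on the minus strand at chr15:74719542-74725610. The exons of SOS1 cover 9263 bases and those of SOS2 cover 6938. The paralogs share no run longer than 23 bases in their annotated transcripts. None of the 9253 distinct windows of 100 bases in SOS1 transcripts, and none of the 7128 in SOS2 transcripts, recurs in another annotated gene.

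The promoters are shown because SOS1 followed CYP1A1 and SOS2 did not, and because AhR and ARNT recognise a short core that can be looked for by its letters. The windows run from 250 bases before to 50 bases after the RefSeq start site (GRCh38.p14). They lie at chr2:39124819-39125118 for the first SOS1 start, at chr14:50231529-50231828 for SOS2 and at chr15:74725479-74725778 for CYP1A1, all on the minus strand, and capitals mark GCGTG. The first RefSeq start of SOS1 lies upstream of the GENCODE model of the gene, so its window is outside the gene positions given above, and the second start lies inside them:
SOS1: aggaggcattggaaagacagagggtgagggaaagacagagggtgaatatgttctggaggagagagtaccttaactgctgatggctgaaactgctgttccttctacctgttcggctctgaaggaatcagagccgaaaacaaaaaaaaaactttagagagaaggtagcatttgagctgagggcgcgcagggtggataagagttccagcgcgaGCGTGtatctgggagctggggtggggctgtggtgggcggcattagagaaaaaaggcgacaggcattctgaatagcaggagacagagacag
SOS2: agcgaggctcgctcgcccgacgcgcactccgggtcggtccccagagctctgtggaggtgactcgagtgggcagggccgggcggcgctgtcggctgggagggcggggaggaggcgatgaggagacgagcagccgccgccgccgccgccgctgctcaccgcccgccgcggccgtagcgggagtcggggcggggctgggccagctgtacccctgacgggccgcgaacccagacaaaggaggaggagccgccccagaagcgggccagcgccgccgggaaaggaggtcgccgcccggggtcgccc
CYP1A1: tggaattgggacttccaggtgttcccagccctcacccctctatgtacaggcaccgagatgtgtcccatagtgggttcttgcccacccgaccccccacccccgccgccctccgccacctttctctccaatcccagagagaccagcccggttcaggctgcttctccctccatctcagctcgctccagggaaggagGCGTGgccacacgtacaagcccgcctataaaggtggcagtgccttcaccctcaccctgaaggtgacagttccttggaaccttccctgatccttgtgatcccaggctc

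SOS1 had 1 match to GCGTG, 40 bases before the first RefSeq start, a match that depends on that start, and CYP1A1 had 1, 57 bases before its start. SOS2 had none on either strand. A second RefSeq start of SOS1, with its window at chr2:39121002-39121301, had none either. GCGTG is found on either strand in 12832 of 35116 promoter windows of this length (36.5%), so a match is common. The longer form TNGCGTG, which 1935 of the windows hold (5.51%), was in none of the 4. The well-known response elements of CYP1A1 lie further upstream than this window reaches.

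SOS1 was highest with Scutellariae Radix at the medium dose and with Coptidis Rhizoma at the medium dose. In the 3 Scutellariae Radix medium libraries SOS1 stood at 320.3, 335.7 and 307.4 CPM (counts per 1000000, scaled by TMM), against 84.41, 94.24 and 88.52 CPM with vehicle. These are 7461 to 9080 counts per library with Scutellariae Radix medium and 2051 to 2533 with vehicle, and no treated library came near a vehicle library. The means were 321.1 ± 14.2 CPM and 89.1 ± 4.94 CPM (SD, n = 3 each), a log2 fold change of 1.85 (SE 0.05) or 3.61-fold. The single Coptidis Rhizoma medium library had 318.3 CPM (95% exact Poisson interval 310.9 to 325.8), which lies inside the range of the Scutellariae Radix medium libraries. This interval, like all those given for single libraries, covers counting error only.

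Across the Scutellariae Radix doses SOS1 was highest in the middle. It averaged 89.1 ± 4.94 CPM with vehicle, 154.5 ± 14.7 CPM at the low dose, 321.1 ± 14.2 CPM at the medium dose and 225.0 ± 8.99 CPM at the high dose (SD, n = 3 each). The low-dose libraries had 167.5, 157.4 and 138.6 CPM and the high-dose libraries 216.9, 234.6 and 223.5 CPM. No library of 1 of these doses overlapped a library of another. The log2 fold change against vehicle was 0.80 (SE 0.05) at the low dose and 1.34 (SE 0.05) at the high dose. High against low gave a log2 fold change of 0.54 (SE 0.05), and high against medium gave -0.51 (SE 0.05). Replicate 3 of the low dose stood apart from its other libraries over all genes, and it was also the lowest in SOS1; without it the low-dose log2 fold change was 0.87.

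Sayeok-tang at the high dose came next. SOS1 had 165.4, 176.8 and 183.3 CPM there, a mean of 175.2 ± 9.09 CPM (SD, n = 3), with a log2 fold change of 0.98 (SE 0.05) against vehicle. This range overlapped that of Scutellariae Radix low and was clear of the vehicle. At the medium dose of Sayeok-tang SOS1 had 107.9, 99.69 and 102.2 CPM (log2 fold change 0.21, SE 0.05), still above each vehicle library. At the low dose it had 91.13, 92.42 and 91.20 CPM, within the vehicle range. High against low gave a log2 fold change of 0.94 for this formula.

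Dried ginger high had SOS1 at 127.7 and 119.0 CPM (log2 fold change 0.47, SE 0.05), and the single Coptidis Rhizoma low library at 123.8 CPM (interval 119.2 to 128.5) fell between them. Bojungikgi-tang high had 112.5 and 113.0 CPM (log2 fold change 0.34, SE 0.05), and Pinelliae Tuber high had 109.0, 111.7 and 100.6 CPM (log2 fold change 0.27, SE 0.05). All of these libraries lay above the vehicle range. Fresh ginger stayed close to the vehicle: its high dose had 97.32, 96.50 and 95.24 CPM, just above the highest vehicle library, and its log2 fold change was 0.11 (SE 0.05). Its low, medium and high means were 94.6, 95.4 and 96.4 CPM, and the libraries of these doses overlapped.

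The remaining groups were near the vehicle. Dried ginger medium averaged 99.0 ± 1.56 CPM (SD, n = 3) and Bojungikgi-tang medium had 98.80 and 98.03 CPM, all above the vehicle libraries. Dried ginger low (94.1 ± 0.69 CPM), Pinelliae Tuber low (95.3 ± 1.34 CPM) and Pinelliae Tuber medium (93.5 ± 3.58 CPM; SD, n = 3 each) overlapped the vehicle range, as did Bojungikgi-tang low at 92.66 and 87.26 CPM. Zizyphi Fructus had 73.88 CPM at the low dose, 97.70 at the medium dose and 96.49 at the high dose, in 1 library each. The low-dose library was the only group below the vehicle range (interval 70.69 to 77.18), and it has no replicate.

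Over the 23 treated groups, SOS1 was above every vehicle library in 15, of which 11 were among the 18 groups with replicates. It overlapped the vehicle in 7 groups and was below it in 1. In the order of means, Scutellariae Radix medium, Coptidis Rhizoma medium, Scutellariae Radix high, Sayeok-tang high and Scutellariae Radix low led, and between the first and the last of these only Coptidis Rhizoma medium with Scutellariae Radix medium, and Sayeok-tang high with Scutellariae Radix low, did not separate by library. Below Bojungikgi-tang high, neighbours in the order mostly overlapped. Of the 7 extracts with 3 doses, 4 had SOS1 means that rose at each step of dose, namely Sayeok-tang, Bojungikgi-tang, fresh ginger and dried ginger.

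**Figure D1:**
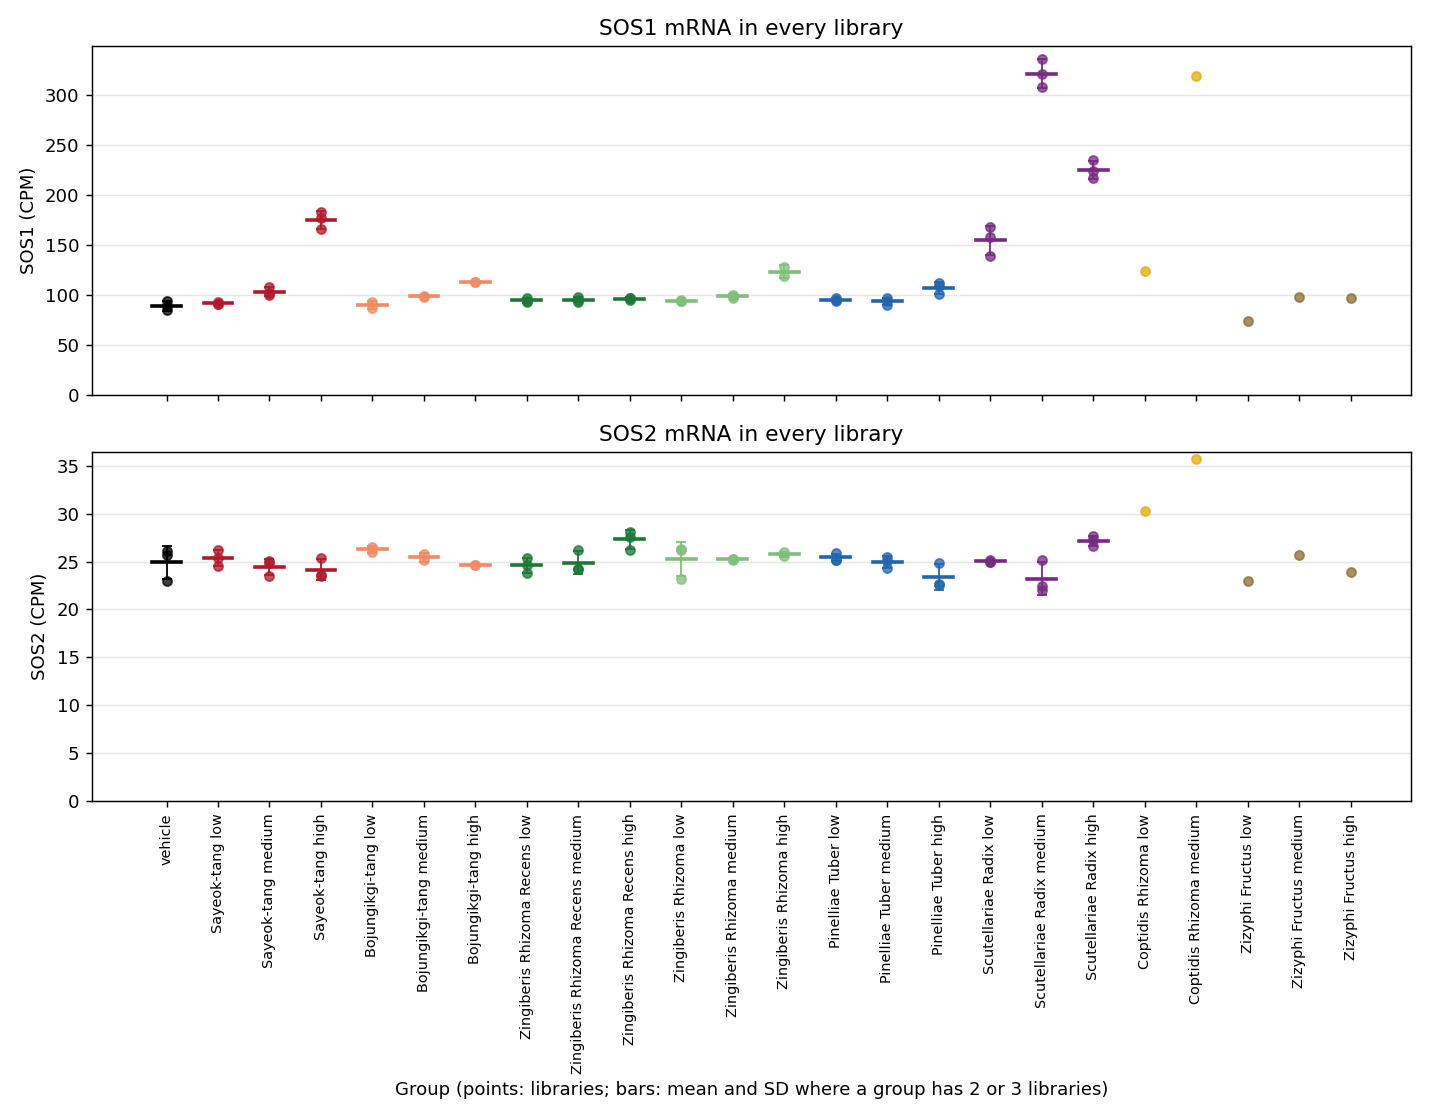
SOS1 (top) and SOS2 (bottom) in CPM in each of the 58 libraries, by group, with the vehicle at the left and doses from low to high within an extract; points are libraries and bars are means with SD where a group has 2 or 3. SOS1 reaches 307.4 to 335.7 CPM with Scutellariae Radix medium, while the SOS2 means of groups with replicates lie between 23.2 and 27.3 CPM.

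SOS2 moved little in the same libraries. Scutellariae Radix medium, where SOS1 peaked, had SOS2 at 25.15, 22.47 and 22.04 CPM, against 25.72, 26.08 and 22.97 CPM with vehicle. The libraries overlap, and the means were 23.2 ± 1.69 and 24.9 ± 1.70 CPM (SD, n = 3 each; log2 fold change -0.10, SE 0.05). These are 535 to 713 counts with Scutellariae Radix medium and 584 to 701 with vehicle. Sayeok-tang high had 23.44, 25.42 and 23.64 CPM of SOS2 (log2 fold change -0.05, SE 0.05). Dried ginger high had 25.96 and 25.58 CPM (0.05), Bojungikgi-tang high 24.69 and 24.63 CPM (-0.02) and Pinelliae Tuber high 22.66, 24.90 and 22.59 CPM (-0.09 as a log2 fold change).

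Of the 18 treated groups with replicates, 2 had SOS2 above every vehicle library. Scutellariae Radix high had 27.62, 27.22 and 26.63 CPM (log2 fold change 0.12, SE 0.05), and fresh ginger high had 26.25, 28.10 and 27.60 CPM (log2 fold change 0.13, SE 0.05). Their means were 1.09 and 1.10 times that of the vehicle. The SOS2 means of all groups with replicates lay between 23.2 and 27.3 CPM, and most neighbours in their order overlapped. SOS2 was highest in the single Coptidis Rhizoma libraries, at 30.33 CPM (interval 28.10 to 32.69) at the low dose and 35.74 CPM (33.29 to 38.34) at the medium dose, or 1.22 and 1.43 times the vehicle mean. Scaled by plain totals in place of TMM, SOS2 was 26.6 CPM at the low dose and 32.6 CPM at the medium dose, against at most 26.5 CPM with vehicle. Zizyphi Fructus had 23.00, 25.64 and 23.94 CPM at the low, medium and high doses, within the vehicle range. SOS2 means rose at each step of dose in 1 of the 7 extracts, fresh ginger.

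Scutellariae Radix high against medium had the paralogs moving in opposite directions. SOS1 was 225.0 CPM at the high dose and 321.1 CPM at the medium dose, while SOS2 was 27.2 ± 0.50 CPM at the high dose and 23.2 ± 1.69 CPM at the medium dose (SD, n = 3 each). The log2 fold change of SOS2 was 0.22 (SE 0.05), and its libraries at these doses did not overlap.

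The ratio of SOS1 to SOS2 counts within a library shows the same without any scaling between libraries. It was 13.9 ± 1.10 in Scutellariae Radix medium, 8.29 ± 0.39 in Scutellariae Radix high, 6.18 ± 0.58 in Scutellariae Radix low and 7.26 ± 0.44 in Sayeok-tang high, against 3.58 ± 0.29 with vehicle (SD, n = 3 each). The vehicle libraries ranged from 3.28 to 3.85. Coptidis Rhizoma had 4.08 at the low dose and 8.90 at the medium dose; SOS2 was raised there too, so its ratio fell short of that of Scutellariae Radix medium at a like level of SOS1. Dried ginger high had 4.79, Pinelliae Tuber high 4.58, Bojungikgi-tang high 4.57 and fresh ginger high 3.53. Per kilobase of exon, SOS1 was 34.7 CPM and SOS2 3.35 CPM with Scutellariae Radix medium, against 9.61 and 3.59 CPM with vehicle, so SOS1 was the more abundant paralog per length with vehicle as well, by 2.68 ± 0.22 times (SD, n = 3).

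**Figure D2:**
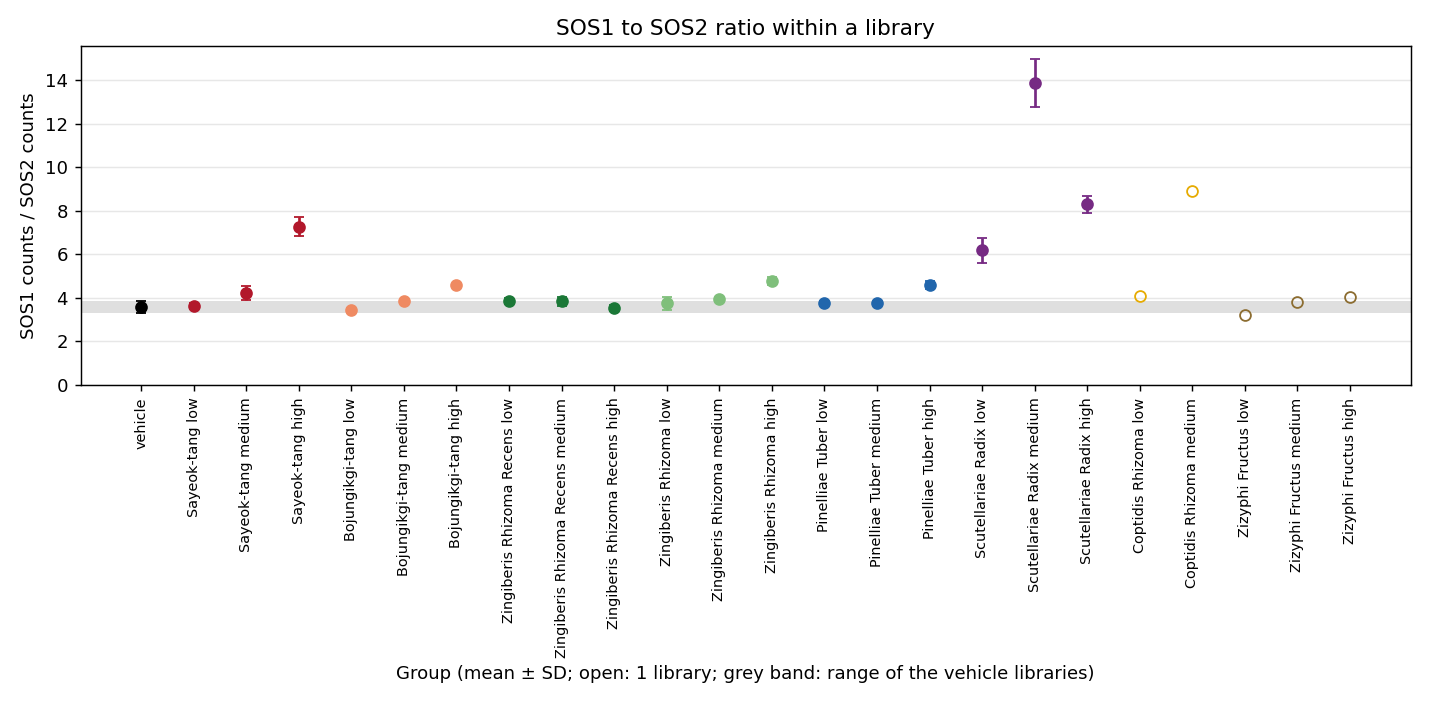
Counts of SOS1 divided by counts of SOS2 in each group, as mean ± SD over libraries, with open symbols for single libraries and a grey band for the range of the vehicle libraries (3.28 to 3.85). Scutellariae Radix medium stands highest at 13.9, and the fresh ginger groups lie in or near the band.

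SOS1-IT1 (ENSG00000229692), a transcript annotated as sense intronic inside SOS1 at chr2:38992279-38993857 on the same strand, was counted apart from SOS1. It had 3.53, 4.90 and 3.46 CPM with Scutellariae Radix medium, against 1.32, 1.08 and 1.10 CPM with vehicle. Its counts were 0.779 to 2.2% of those of SOS1 in all libraries (median 1.17%), and reads of unspliced SOS1 and of SOS1-IT1 cannot be told apart in these counts.

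CYP1A1 showed much the same order of groups as SOS1 over a far wider range. It had 656.5, 678.5 and 707.5 CPM in Scutellariae Radix medium libraries, against 12.72, 10.75 and 14.04 CPM with vehicle, a log2 fold change of 5.77. Its means with Scutellariae Radix were 12.5 ± 1.65 CPM (vehicle), 236.8 ± 33.4 (low), 680.9 ± 25.6 (medium) and 470.1 ± 14.1 CPM (high; SD, n = 3 each), with the same peak at the medium dose as SOS1. Coptidis Rhizoma had 107.6 CPM of CYP1A1 at the low dose and 1142 CPM at the medium dose. Sayeok-tang had 15.7, 44.3 and 292.9 CPM at the low, medium and high doses. The high doses of dried ginger, Bojungikgi-tang, fresh ginger and Pinelliae Tuber had 236.1, 84.2, 49.3 and 48.2 CPM. Zizyphi Fructus had 11.8, 10.5 and 14.6 CPM at the low, medium and high doses.

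SOS1 and CYP1A1 were both above the vehicle range in 14 of the 23 treated groups, and in 5 both overlapped it. CYP1A1 alone was above it in Sayeok-tang low and fresh ginger medium. In Zizyphi Fructus medium SOS1 was above the range and CYP1A1 below it, and in Zizyphi Fructus low SOS1 was below it and CYP1A1 overlapped it. Groups at a like level of CYP1A1 still differed in SOS1. Scutellariae Radix low and dried ginger high had 236.8 and 236.1 CPM of CYP1A1, with SOS1 at 138.6 to 167.5 and 119.0 to 127.7 CPM, which do not overlap. Fresh ginger high and Pinelliae Tuber high had 49.3 and 48.2 CPM of CYP1A1, with SOS1 at 95.24 to 97.32 and 100.6 to 111.7 CPM. Coptidis Rhizoma medium had CYP1A1 at 1142 CPM, above the 680.9 CPM of Scutellariae Radix medium, with SOS1 at the same level. These side-by-side groups were picked after their values were seen.

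The genes whose group means followed SOS1 most closely were sought among the 1242 genes with a mean of at least 5 CPM and a range of at least 1 on the log2 scale over the 24 groups. Pearson's r was 0.951 for RGMB, a co-receptor for bone morphogenetic proteins, 0.934 for FGD4, an exchange factor for CDC42, and 0.920 for CYP1A1. ROBO1, a receptor for SLIT guidance proteins, and GNAI1, an inhibitory G protein subunit, had 0.901 each. LINC00511, a long noncoding RNA, had 0.895, RALGAPA2, a subunit of a GTPase-activating complex for RAL, had 0.880, and SLC23A2, a vitamin C transporter, had 0.861. By ranks the order differed, with Spearman's rho highest for ROBO1 at 0.930 and 0.783 for RGMB. Without the 2 groups highest in SOS1, r ranged from 0.768 for RALGAPA2 to 0.903 for CYP1A1 among the 8 genes. For SOS2 against SOS1, r was 0.422 and rho 0.121. These values describe 24 groups that share 1 scaling and, within an extract, 1 material, and they carry no p-value.

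The levels of some of these genes are given as description, since the genes were picked by their r over the same groups. RGMB averaged 24.0 CPM with Scutellariae Radix medium and 17.8 CPM with Scutellariae Radix high, against 9.37 CPM with vehicle, and had 31.6 CPM in the Coptidis Rhizoma medium library. FGD4 averaged 18.4 and 15.8 CPM at these Scutellariae Radix doses, against 9.87 CPM with vehicle, with 24.6 CPM for Coptidis Rhizoma medium. RGMB and FGD4 thus showed the SOS1 order of the medium and high Scutellariae Radix doses, whereas GNAI1 did not, at 14.7 CPM at the medium dose and 17.1 CPM at the high dose. Among the genes most like SOS2, out of 10664 with a mean of at least 5 CPM, were SH3D19 (r = 0.917), ENSG00000267002, BAZ2B and BCAR3-AS1 (0.911). These 4 were highest in the Coptidis Rhizoma medium library, such as SH3D19 with 115 CPM there, against 88.7 CPM with vehicle. SOS2 was highest in that single library too, and r without it is not given here. By ranks the likeness was weaker, with rho from 0.648 for BCAR3-AS1 to 0.795 for SH3D19.

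Other AhR targets rose in part in the groups where SOS1 was high, and also at fresh ginger high, where SOS1 was near the vehicle. Of the 13 listed, 10 besides CYP1A1 entered the test, and CYP1B1 and UGT1A6 had too few counts. The test was edgeR's quasi-likelihood test, adjusted by Benjamini-Hochberg over all 13945 genes tested, with a gene called at an adjusted p below 0.05. All comparisons with the vehicle share its 3 libraries. Of the 10, AHRR, ALDH3A1, CYP1A2 and EREG averaged under 1 CPM with vehicle and entered the test through treated groups where they were high, so their rise was bound up with the filter. The counts without these 4 were chosen after the data were seen. Of the other 6 genes, 4 rose at Scutellariae Radix medium, where 8.99% of all genes tested did so, 4 at Scutellariae Radix high (28.7% of all genes) and 2 at Scutellariae Radix low (5.44%). At the high doses of the others, 3 of the 6 rose with Sayeok-tang (20.3%), 4 with dried ginger (23.3%), with HES1 lower (22.8%), 4 with fresh ginger (24.3%), 3 with Pinelliae Tuber (9.14%) and 2 with Bojungikgi-tang (2.24%). The rest did not pass the test. With the 4 genes kept, 8 of 10 rose at Scutellariae Radix medium and high, 5 at Scutellariae Radix low, 7 with Sayeok-tang, 8 with dried ginger, 5 with fresh ginger, 5 with Pinelliae Tuber and 4 with Bojungikgi-tang. The last of these counts was 2 without replicate 3 of Bojungikgi-tang high, 2 with DESeq2 and 1 when only the groups compared were fitted. Over the 6 genes the median log2 fold change was 0.34 at Scutellariae Radix high, 0.26 at the medium dose and 0.10 at the low dose. It was 0.39 at dried ginger high and 0.34 at fresh ginger high, where SOS1 was near the vehicle. Sayeok-tang high had 0.12, Pinelliae Tuber high 0.13 and Bojungikgi-tang high -0.01. The medians of all genes tested lay between -0.01 and 0.01.

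AHRR, the repressor that AhR induces against itself, was also higher at the medium than at the high Scutellariae Radix dose. It had 3.42, 3.12 and 2.39 CPM at the medium dose, against 0.66, 0.67 and 0.59 CPM with vehicle, and 8.30 CPM in the Coptidis Rhizoma medium library. Its log2 fold change was 2.22 at the medium dose (SE 0.22) and 1.62 at the high dose (SE 0.23), and high against medium was -0.60 (SE 0.18, edgeR adjusted p = 0.00476). ALDH3A1, an aldehyde dehydrogenase, was likewise lower at the high than at the medium dose, with a log2 fold change of -0.64 (SE 0.16, edgeR adjusted p = 0.000834). At high against medium 4 of the 10 targets were lower (27.1% of all genes were), the others being CYP1A2 and the amino acid transporter gene SLC7A5 (-0.18), and 2 were higher (26.8%), EREG and STC2; of the 6 genes at 1 CPM or more with vehicle, 1 was lower and 1 higher. CYP1A2, a second AhR-induced P450, had 0.88, 1.15 and 1.11 CPM at Scutellariae Radix medium, against 0.04, 0.07 and 0 CPM with vehicle. EREG, a ligand of the EGF receptor, had the opposite dose order, with a log2 fold change of 1.40 at the medium dose and 4.32 at the high dose. NQO1, a quinone reductase, rose at the medium dose by 0.81 and at the high dose by 0.74 on the log2 scale, and high against medium was -0.07 and did not pass the test. TIPARP did not pass the test against vehicle at any high dose or at the other Scutellariae Radix doses.

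Between the medium and high Scutellariae Radix doses, the receptor's own messenger RNA did not follow SOS1. AHR had a log2 fold change of 0.03 at Scutellariae Radix medium (SE 0.05), which did not pass the test, and rose by 0.60 at the high dose (SE 0.05, edgeR adjusted p = 1.18e-13). ARNT fell at both, by 0.28 and 0.21 on the log2 scale (SE 0.05 each). In the other extracts named below, AHR rose in part of the groups where SOS1 did, and AHR with fresh ginger is not given here. It rose by 0.26 at Sayeok-tang high and by 0.20 at Sayeok-tang medium (SE 0.05 each). Dried ginger high against low gave an AHR log2 fold change of 0.52 (SE 0.06). At Bojungikgi-tang high (0.13) and Pinelliae Tuber high (0.08) AHR did not pass the test.

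**Figure D3:**
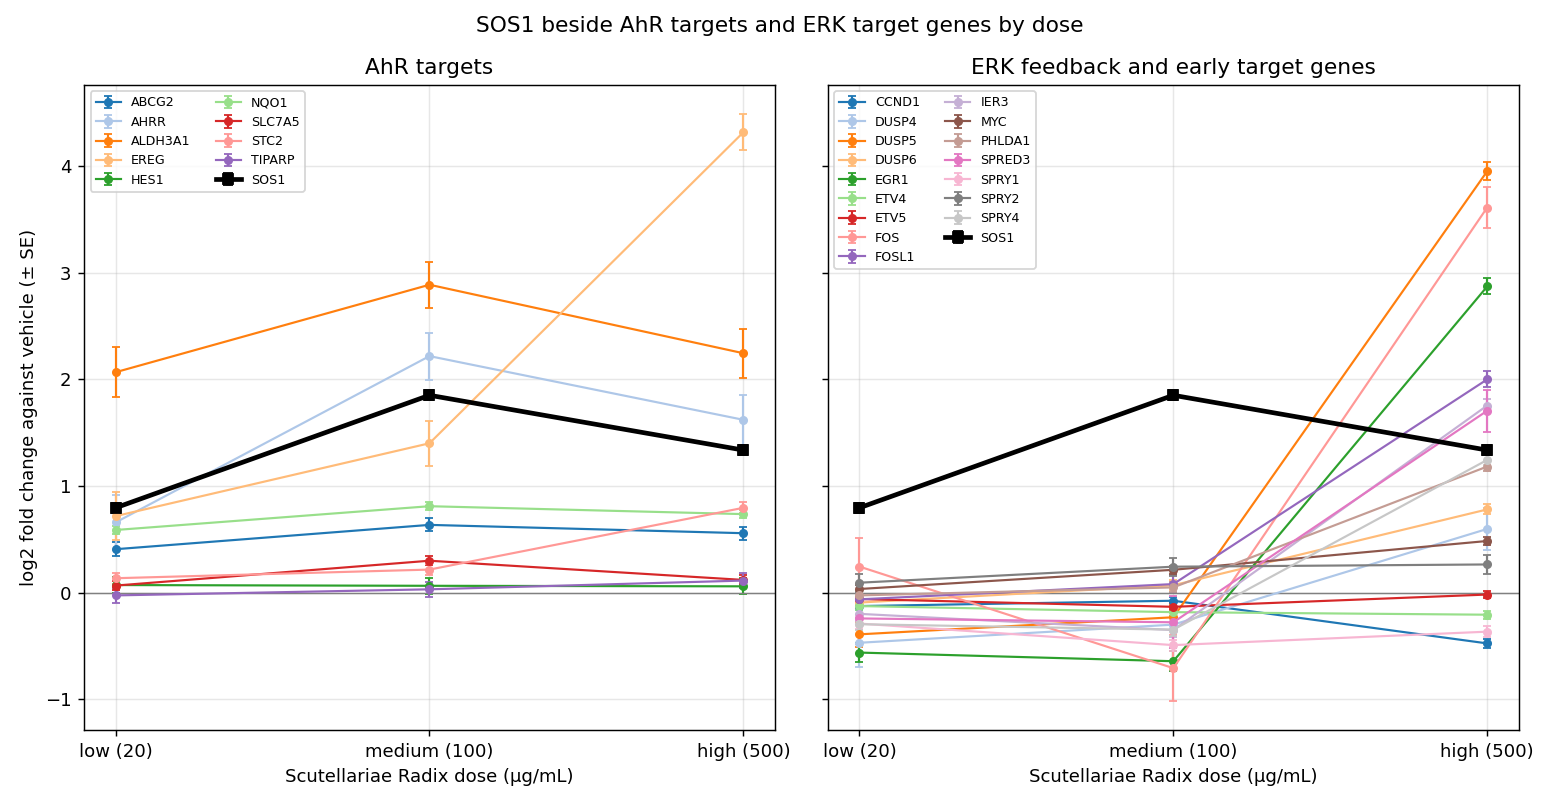
Log2 fold changes against vehicle (± SE) at the low, medium and high Scutellariae Radix doses for AhR targets other than CYP1A2 (left) and for ERK feedback and early target genes (right), with SOS1 in black in both. SOS1 peaks at the medium dose at 1.85, whereas DUSP5 is at -0.23 there and at 3.95 at the high dose.

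The genes around SOS1 in the RAS to ERK pathway, like genes in general, were called more often at the high than at the medium Scutellariae Radix dose, while SOS1 was higher at the medium dose. Whether the pathway genes differ from all genes in this was not tested. The lists held 77 genes other than the paralogs, and 66 of them entered the test. At Scutellariae Radix high 39 rose (59.1%) and 16 fell (24.2%), where 28.7% of all genes tested rose and 28.1% fell. At the medium dose 9 rose (13.6%) and 14 fell (21.2%), where 8.99% of all genes rose and 9.33% fell, and at the low dose 4 rose and 14 fell (5.44% and 4.87% of all genes). High against medium had 37 higher and 13 lower, where 26.8% and 27.1% of all genes were. At the medium dose, the log2 fold changes named below were chosen after their values were seen.

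RASGRF2, a calcium-sensitive RAS exchange factor, was the only other member of the exchange factor list with enough counts to be tested; RASGRF1 and RASGRP1 to RASGRP4 had too few. It had 108.1, 116.4 and 111.6 CPM with Scutellariae Radix high, against 73.38, 79.36 and 77.94 CPM with vehicle (log2 fold change 0.54, SE 0.04, edgeR adjusted p = 1.65e-15). At Scutellariae Radix medium it had 79.06, 85.43 and 74.74 CPM, which overlap the vehicle libraries (log2 fold change 0.05, SE 0.04). RASGRF2 was called higher with fresh ginger high as well (0.64), where SOS1 was near the vehicle. Its rises at dried ginger high (0.54), Sayeok-tang high (0.46) and Bojungikgi-tang high (0.21) were called too, and Pinelliae Tuber high had 0.08 and did not pass the test.

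Of the 20 receptors and adaptors tested, 11 rose (55%) and 7 fell (35%) at Scutellariae Radix high, where 28.7% and 28.1% of all genes did, and 1 rose (5%) and 4 fell (20%) at the medium dose, where 8.99% and 9.33% did. EGFR, the receptor for epidermal growth factor, rose by 1.38 on the log2 scale at the high dose (SE 0.07, edgeR adjusted p = 1.1e-22) and had -0.10 at the medium dose. The adaptors GRB10 and GAB2 rose by 1.32 and 1.21 at the high dose, while ERBB2, a receptor kinase related to EGFR, fell by 0.82. GRB2, which carries SOS1 to receptors, fell by 0.18 at the high dose and by 0.14 at the medium dose. At the high dose of fresh ginger EGFR rose by 0.89 and GAB2 by 0.80, and at that of dried ginger by 1.03 and 0.96.

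Among the 6 RAS genes, 4 rose at Scutellariae Radix high (28.7% of all genes) and 2 at the medium dose (8.99%); whether these and the following small groups differ from all genes was not tested. MRAS rose more at the medium dose, by 0.72 on the log2 scale (SE 0.05, edgeR adjusted p = 1.42e-15), than at the high dose, by 0.25, and high against medium was -0.47 (SE 0.05, edgeR adjusted p = 1.85e-11). RRAS2 led at the high dose with a rise of 0.61. In the RAC complex EPS8 rose at both doses, by 0.56 and 0.23 at high and medium, where 28.7% and 8.99% of all genes rose. Of the 4 genes PIK3R1 fell at the high dose (-0.19), where 28.1% of all genes fell. Of the 8 GTPase-activating proteins and their partners, which switch RAS off, 4 rose and 1 fell at the high dose (28.7% and 28.1% of all genes), with RASAL2 at 0.92 and DAB2IP at -0.52, and 2 fell at the medium dose (9.33%). In the kinase cascade 6 of 11 rose and 4 fell at the high dose (28.7% and 28.1% of all genes), led by MAP2K1 (MEK1) at 0.63 and MAPK3 (ERK1) at -0.62; at the medium dose 3 rose and 2 fell (8.99% and 9.33%).

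ERK feedback and early target genes are transcribed when the cascade is active in many cell types. Of the 16 tested, 12 rose and 3 fell at Scutellariae Radix high (28.7% and 28.1% of all genes), and 2 rose and 6 fell at the medium dose (8.99% and 9.33%). FOS and SPRED3 were under 1 CPM with vehicle; of the other 14, 10 rose and 3 fell at the high dose, with a median log2 fold change of 0.69 (0.01 for all genes tested), and 2 rose and 6 fell at the medium dose, with a median of -0.16. DUSP5, a nuclear ERK phosphatase, had 72.49, 63.19 and 60.00 CPM at the high dose, against 4.49, 4.20 and 3.97 CPM with vehicle (log2 fold change 3.95, SE 0.09, edgeR adjusted p = 5.5e-35). At the medium dose it had 3.95, 3.34 and 3.46 CPM, below each vehicle library, with a log2 fold change of -0.23 that did not pass the test.

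EGR1, an immediate early transcription factor, had 94.76, 84.69 and 84.90 CPM at the high dose, against 12.68, 11.61 and 11.92 CPM with vehicle (log2 fold change 2.87, SE 0.08). At the medium dose it fell to 7.27, 7.47 and 8.49 CPM (log2 fold change -0.64, SE 0.09, edgeR adjusted p = 9.4e-07). FOS, which was under 1 CPM with vehicle, had 8.78, 7.91 and 6.86 CPM at the high dose and 0.39, 0.45 and 0.33 CPM at the medium dose. In the Coptidis Rhizoma medium library, at the SOS1 level of Scutellariae Radix medium, EGR1 had 75.2 CPM and DUSP5 26.1 CPM, both above the vehicle libraries.

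Fresh ginger changed these genes at a SOS1 level close to that of the vehicle. At its high dose SOS1 averaged 96.4 ± 1.05 CPM (SD, n = 3), and 12 of the 16 ERK target genes rose and 1 fell, where 24.3% and 23.6% of all genes did. Without FOS and SPRED3, 11 of 14 rose and 1 fell, with a median log2 fold change of 0.59. EGR1 rose by 2.35 (SE 0.08, edgeR adjusted p = 1.93e-28), FOS by 3.89 and IER3 by 1.99 on the log2 scale. Over all 66 pathway genes 34 rose and 11 fell. Sayeok-tang high, with SOS1 at 175.2 CPM, had 10 ERK target genes higher and 2 lower (20.3% and 19.9% of all genes), and dried ginger high had 11 higher and 4 lower (23.3% and 22.8%), the share lower being close to that of all genes. Bojungikgi-tang high had 1 higher, PHLDA1, and 1 lower, CCND1 (2.24% and 2.31% of all genes), and Pinelliae Tuber high had 2 higher and 4 lower (9.14% and 6.57%), with EGR1 at -0.51.

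Comparisons of doses within an extract stay within a set. High against low had 38 pathway genes higher and 15 lower for Scutellariae Radix (27.2% and 28.5% of all genes), 34 and 8 for fresh ginger (23.3% and 24.3%), 28 and 19 for dried ginger (23.2% and 24.3%), 25 and 10 for Sayeok-tang (18.4% and 19.3%), 8 and 4 for Pinelliae Tuber (5.09% and 4.98%) and 2 higher for Bojungikgi-tang (0.81%, with 0.875% of all genes lower). The 12 Pinelliae Tuber calls became 6 without low replicate 1 or 3, and 7 without high replicate 1. The 2 Bojungikgi-tang calls became 1 without high replicate 3 or low replicate 2, and with edgeR 0 without high replicate 2 or low replicate 3, where 12 genes had an unadjusted p below 0.05 with all libraries and DESeq2 called 3. The SOS1 log2 fold change, high against low, was 0.54 for Scutellariae Radix, 0.03 for fresh ginger, 0.39 for dried ginger, 0.94 for Sayeok-tang, 0.17 for Pinelliae Tuber and 0.33 for Bojungikgi-tang.

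**Figure D4:**
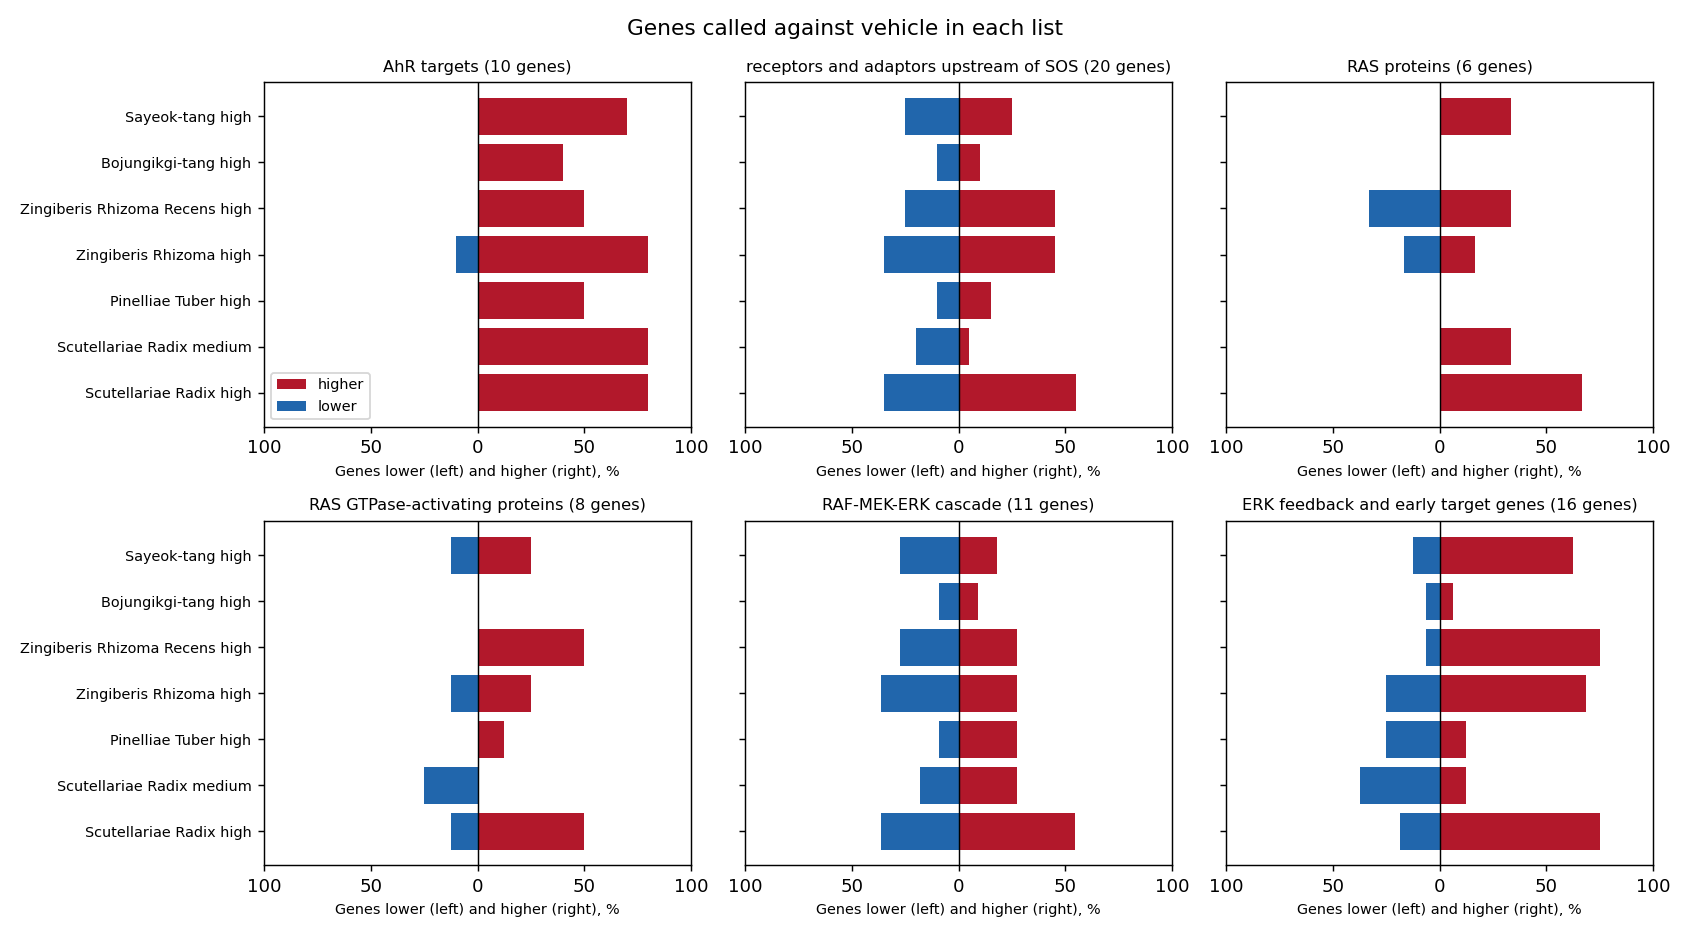
Share of the tested genes of 6 lists that were called higher (right, red) or lower (left, blue) against vehicle at the high dose of 6 extracts and at Scutellariae Radix medium. AhR targets rise in 8 of 10 cases at Scutellariae Radix medium and in 8 of 10 at the high dose (4 of the 10 were under 1 CPM with vehicle). ERK target genes rise in 12 of 16 at the high dose and in 2 of 16 at the medium dose. Of all genes tested, 28.7% rise at the high dose and 8.99% at the medium dose.

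The neighbours of SOS1 on chromosome 2 changed far less than it did. Of the 4 nearest protein-coding genes on each side, 5 entered the test, and at Scutellariae Radix medium only DHX57, 105.5 kb away, was called higher, by 0.15 on the log2 scale (SE 0.04). At Scutellariae Radix high only MAP4K3, a kinase gene 124.9 kb away, was called, with 0.22 (SE 0.05). At Sayeok-tang high MORN2, DHX57, GEMIN6 and MAP4K3 rose by 0.12 to 0.28. Around SOS2 all 8 neighbours entered the test; at Scutellariae Radix medium KLHDC2 fell by 0.19 on the log2 scale, and VCPKMT, 0.52 kb from SOS2, was called in none of the 4 comparisons examined (Scutellariae Radix medium and high, Sayeok-tang high and dried ginger high).

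HepG2 cells carried their liver markers throughout. The 8 hepatocyte genes, led by APOB, summed to 30060 to 30490 CPM with Scutellariae Radix high and 33610 to 37500 CPM with Scutellariae Radix medium, against 40590 to 41260 CPM with vehicle. All 8 fell at Scutellariae Radix high, where 28.1% of all genes fell. At the medium dose 5 fell and 1 rose, where 9.33% and 8.99% of all genes did. Coptidis Rhizoma medium had 35050 CPM and Sayeok-tang high 34990 to 38020 CPM. In bulk RNA, fewer cells of a type and less RNA per cell cannot be told apart, and the part of this fall in the SOS1 levels was not tested. Of the fibroblast markers COL1A2 and DCN were at 0 in every library, and the 5 genes summed to at most 24.1 CPM in treated libraries and 10.2 to 11.8 CPM with vehicle. The leukocyte marker PTPRC was at 0 in every library; LYZ, which led that list at a mean of 1327 CPM with vehicle, brought the sum to 1729 to 1734 CPM with Scutellariae Radix high, 1327 to 1498 with the medium dose, 1902 to 2028 with Sayeok-tang high and 2066 to 2372 with fresh ginger high, against 1324 to 1405 CPM with vehicle; its part in the pathway results was not tested. The 4 endothelial genes summed to at most 5.08 CPM.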

How the data were processed

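RNA was measured in 58 libraries by paired sequencing. Per the submitters' processing notes, the tools were STAR 2.7.3a for alignment, RSEM 1.3.3 for counting, FastQC 0.11.9 and Trim Galore 0.6.5, on GRCh38; the annotation is not given in the sources used here. The values the authors deposited are expected counts per gene, of which 75.26% of those above 0 were whole numbers; the rest were rounded before testing. Reads that fit several genes are split by RSEM, which can affect close paralogs. A further 209 columns of the table were not used, and the wortmannin control was not analysed here.

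Counts were fitted with edgeR 4.0.16 (limma 3.58.1, R 4.3.3; figures and levels with Python 3.11.15, pandas 2.3.3), with TMM factors of 0.878 to 1.035 and a separate mean per group (24 groups, 58 libraries together). A gene needed 1 CPM or more in 3 or more libraries, which 13945 had. The common dispersion gave a coefficient of variation of 4.25% between replicates. The quasi-likelihood test was two-sided, adjusted by Benjamini-Hochberg at 0.05. Fold changes of SOS1, SOS2 and CYP1A1 come from the same fit without a p-value. The method was tested on simulated data. Replicates were compared by chi-square, and no pair was a copy of another; replicate 3 of Scutellariae Radix low and of dried ginger low stood apart from the others of their groups. Intervals at 95% for single libraries are exact Poisson intervals.

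The members and gene lists were chosen with earlier results of these data known. The genes named are SOS1, SOS2 and CYP1A1 in every group, up to 4 called members of each list with the largest changes in each high-dose comparison, the AhR target and exchange factor lists, the 8 genes most like SOS1 and 5 most like SOS2, and the 4 nearest protein-coding neighbours on each side. Some genes that this rule names are not reported here. The Scutellariae Radix high against medium comparison was added after the data were seen. Alternatives tried were DESeq2 1.42.0, other scaling (RLE, plain library totals), no filter on low counts, unrounded counts, a fit of only the groups compared, the replicate number as a block, each library left out and, added after the data were seen, lists without genes under 1 CPM with vehicle.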

Additional observations from a re-analysis of the deposited data

How the results depend on the processing

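Each SOS1 log2 fold change above 0.1 in size kept its sign in every alternative tried. RLE scaling and the replicate block moved none of 101 values beyond the replicate spread or 1.5 times a count, DESeq2 moved 2, and plain library totals moved 12 of the levels and left 36. With AhR targets limited to the 6 genes at 1 CPM or more with vehicle, which leaves fewer genes to call, calls against vehicle at the high dose numbered 4 for Scutellariae Radix, 5 for dried ginger, 3 for Sayeok-tang, 3 for Pinelliae Tuber and 2 for Bojungikgi-tang; for high against low they numbered 3, 4, 3, 4 and 1 in these extracts, and for Scutellariae Radix high against medium 2. For Bojungikgi-tang high against vehicle, 4 AhR targets were called, against 1 with only the groups compared and 2 with DESeq2; for high against low, 2 were called, against 1 with each of these. In that comparison 2 genes of the RAS to ERK pathway were called by edgeR, 1 with library totals alone, 3 with DESeq2 and 0 in edgeR with only the groups compared, while 12 had an unadjusted p below 0.05 in the fit of all groups. Pinelliae Tuber high against low had 12 pathway genes, and 7 with no filter on low counts. Dried ginger high against low had 8 AhR targets, and 5 with only the groups compared. Leaving out 1 library gave 2 to 7 pathway genes for Bojungikgi-tang high against vehicle (main value 9), with 2 without its replicate 2, 3 without its replicate 3 and 5 without vehicle replicate 2 or 3, and 0 to 1 for high against low (0 without high replicate 2 or low replicate 3; main value 2). It gave 2 to 4 AhR targets for Bojungikgi-tang high against vehicle (2 without its replicate 3) and 6 to 10 pathway genes for Pinelliae Tuber high against low (6 without low replicate 1 or 3, 7 without high replicate 1). Where a group had 2 libraries, the remaining 1 was assumed to vary like the other groups. The SOS1 log2 fold change was 0.73 to 0.87 for Scutellariae Radix low against vehicle (0.87 without replicate 3) and 0.47 to 0.60 for high against low. The SOS2 log2 fold change was -0.163 to -0.065 for Scutellariae Radix medium against vehicle, 0.189 to 0.287 for high against medium, -0.039 to 0.075 for dried ginger low against vehicle and -0.027 to 0.063 for dried ginger high against low; the values for dried ginger lay on both sides of 0. Scaled by plain totals, SOS1 in Coptidis Rhizoma was 108.5 CPM at the low dose and 290.2 CPM at the medium dose, against 123.8 and 318.3 CPM with TMM, moves beyond the replicate spread of the other groups. With the replicate number as a block the SOS1 log2 fold change was 0.98 for Sayeok-tang high and 0.46 for dried ginger high, and pathway genes called for Sayeok-tang high numbered 37 (36 without it); no value left its range under the block. Libraries of the same number correlated at -0.157 to 0.206, and no comparison with 3 pairs had all of them over 0.1, so the numbers were not taken to pair the libraries. With 1 library in each Coptidis Rhizoma and Zizyphi Fructus group, the spread between replicates there is unknown.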
